A study of Rattus norvegicus with 8 samples.

Results

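The genes described here are 40 genes of the Fanconi anaemia pathway, of DNA interstrand crosslink repair and of homologous recombination, read in rat lung. They were chosen by name, and each was matched to the row of the deposited table with the same gene symbol. Of the 40, 38 had a row among the 32623 genes of the table, each with 1 row, and Ercc4 and Chek1 are not analysed here. The filter on low counts kept 37 of the 38, all but Rad51b. The study sequenced poly(A)-selected RNA of lung tissue of Rattus norvegicus in 2 groups of 4 libraries. The MCT libraries came from rats treated with MCT (monocrotaline), an alkaloid used to model pulmonary hypertension, and the control libraries from the control group. Genotype, strain, sex, age, dose and time after treatment are not stated in the labels, and no label says whether each library is its own animal. P-values therefore reflect only how far these 8 libraries vary, and that variation may be technical.

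As background, an interstrand crosslink ties both strands of DNA together and stops a replication fork. The Fanconi core complex, a ubiquitin ligase built around FANCL, then marks FANCD2 and FANCI with ubiquitin, nucleases cut the crosslink loose, bypass polymerases copy past the remnant, and homologous recombination repairs the break. Monocrotaline is converted in the liver to a reactive pyrrole that can crosslink DNA and protein. Many of these genes are also transcribed mainly in S and G2 phase, under the E2F factors and the DREAM complex, because recombination uses the sister chromatid as its template. In adult lung, where few cells divide, such genes are usually low.

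The libraries held about 10.8 to 18.1 M read pairs each. The lung surfactant gene Sftpc stood at 13663 to 26795 FPKM (fragments scaled to transcript length and library depth) in all 8, so the tissue's defining marker was present. MCT 1 and control 1 stood apart from the other libraries on the second principal component (15.3% of the variance), at 77.2 and 24.8 against -36.9 to -4.5. In MCT 1 the summed FPKM of 8 cardiac myocyte markers was 145, against 26.9 to 63.8 in the other libraries. The median of 9 ciliated cell markers was 2.36 times its control mean in MCT 1 and 1.55 times in control 1. It was 0.597 to 1.12 times in the remaining libraries. The counts of called repair genes are therefore also given without these 2 libraries.

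In MCT lung, 12 of the 37 genes tested rose (32.4%) and 1 fell (2.70%). Over all 16715 genes tested, edgeR's quasi-likelihood test called 11.0% higher and 9.45% lower in MCT, at a Benjamini-Hochberg adjusted p under 0.05. The 12 genes that rose were Ube2t, Eme1, Bard1, Brip1, Fancd2, Rad54l, Brca1, Fanci, Rad51ap1, Fanca, Chek2 and Usp1, and the gene that fell was Fance. The median log2 fold change (MCT minus control) of the 37 genes was 0.63, beside 0.03 over all genes tested. For 16 of the 37 every MCT library lay above every control library in FPKM, and for 3 every MCT library lay below, where 13.3% and 11.7% of all genes tested did so. The 37 genes had 29 positive log2 fold changes, and 52.4% of all genes tested were positive. DESeq2 called 19 of 38 higher (13.1% of all genes), limma on log2(FPKM + 0.5) 11 of 34 (12.2%), and edgeR on counts divided by the units per read pair 16 of 37 (12.6%). With a filter of at least 1 FPKM in 4 libraries, 7 of 23 rose (12.6% of all genes). The 4 MCT libraries alone can carry a gene past this filter, as they did for Ube2t (0.30 to 0.72 FPKM in control). It therefore keeps some low genes because they rose. The limma fits kept genes at 0.5 FPKM or more in 4 libraries, which has the same limit. Fanca, Eme1, Brca1, Bard1 and Exo1, all called by limma, were under 0.5 FPKM in every control and passed only through MCT. With MCT 1 and control 1 both left out, 15 of 38 tested rose and none fell by edgeR (10.8% and 10.2% of all genes). In that setting all 12 genes were still called and Blm, Exo1 and Xrcc2 were added, while Fance was at -0.28 on the log2 scale (adjusted p 0.0604). A lung sample mixes many cell types, so more cells of a type and more RNA per cell cannot be told apart.

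**Figure D1:**
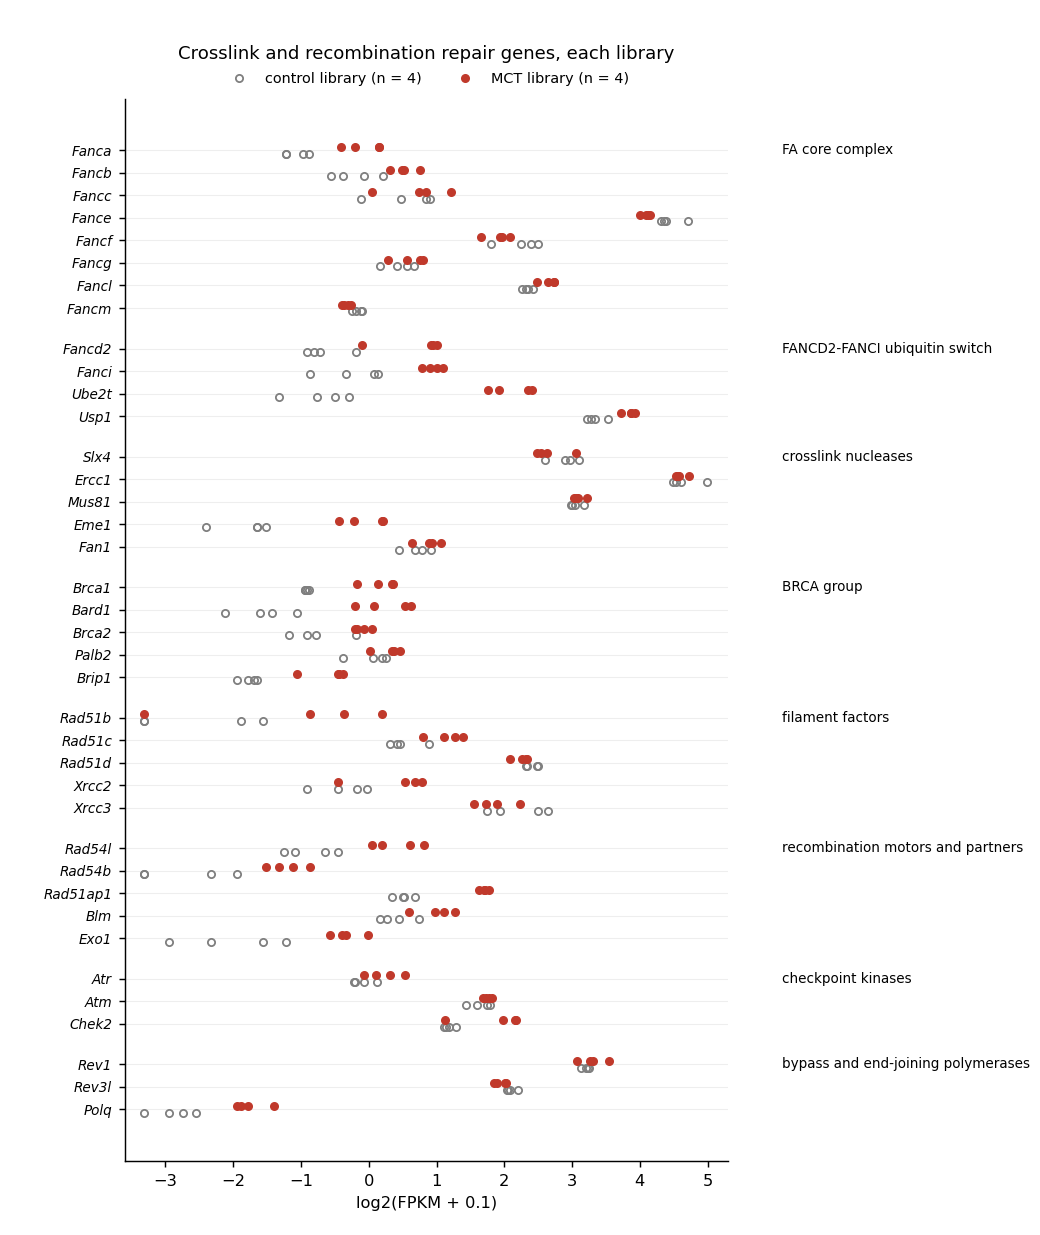
Level of each of the 38 genes in each library, as log2(FPKM + 0.1), with control libraries as open grey circles and MCT libraries as filled red circles (4 each), grouped by role. The MCT circles lie wholly to the right of the control circles for 16 of the 37 genes tested, among them Ube2t, Eme1 and Bard1, and wholly to the left for Fance, Fancm and Rev3l.

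The 2 proteins that the pathway turns on, FANCD2 and FANCI, form a clamp on DNA when ubiquitin is attached. All 4 genes of this step rose, where 11.0% of all genes tested did. Ube2t encodes the ubiquitin-conjugating enzyme that works with FANCL. Its level was 0.61, 0.49, 0.72 and 0.30 FPKM in control 1 to 4 and 3.67, 3.30, 5.23 and 4.97 FPKM in MCT 1 to 4. No MCT library came near the control range, and this was the largest change of the 37 genes, at a log2 fold change of 2.96 (SE 0.37, adjusted p 0.00104). The control levels rest on only 2.2 to 6.0 read pairs per library, and those in MCT on 27.0 to 57.8. Fancd2 was at 0.43, 0.47, 0.78 and 0.51 FPKM in control and 0.83, 1.9, 1.79 and 1.83 FPKM in MCT. MCT 1 lay just above the highest control library, while the other 3 MCT libraries lay close together. The log2 fold change of Fancd2 was 1.53 (SE 0.31, adjusted p 0.00886). Its partner Fanci was at 0.45, 0.69, 0.95 and 1 FPKM in control and 1.9, 1.62, 2.03 and 1.77 FPKM in MCT. Here MCT 1 was not low, and the groups did not overlap (log2 fold change 1.24, SE 0.26, adjusted p 0.00943). The ratio of Fancd2 to Fanci in FPKM was 0.742 ± 0.191 (SD, n = 4) in control and 0.881 ± 0.319 in MCT.

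Usp1, the protease that takes the ubiquitin off again, was the most abundant gene that rose. It was at 9.99, 9.23, 9.58 and 11.45 FPKM in control and 13.12, 14.50, 15.18 and 14.47 FPKM in MCT. The groups did not overlap and each was tight, with a log2 fold change of 0.51 (SE 0.08, adjusted p 0.00295). The ratio of Ube2t to Usp1 in FPKM, enzyme to protease, was 0.0539 ± 0.0206 (SD, n = 4) in control and 0.299 ± 0.0563 in MCT. This pair, like the other pairs below, was chosen after the values were seen.

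Of the 8 core complex genes, 1 rose, 1 fell and 6 did not pass the threshold. The shares of 12.5% each were near those of all genes tested (11.0% higher and 9.45% lower). Fanca, the scaffold-forming subunit that is most often mutated in Fanconi anaemia, was at 0.33, 0.33, 0.41 and 0.44 FPKM in control and 0.65, 1.01, 0.77 and 1.01 FPKM in MCT. All MCT libraries were above all controls (log2 fold change 1.18, SE 0.24, adjusted p 0.00902). Fance, which bridges the core complex to FANCD2, went the other way, from 26.00, 20.82, 19.68 and 20.33 FPKM in control to 17.28, 17.64, 17.00 and 15.87 FPKM in MCT. The groups did not overlap, but the change was small, at -0.36 (SE 0.10, adjusted p 0.0355). That call was lost without control 1, control 2, MCT 2, MCT 3 or MCT 4 (adjusted p up to 0.0906). Fancb, which joins FANCL in the catalytic part of the complex, had non-overlapping groups, at 0.58 to 1.06 FPKM in control and 1.14 to 1.59 FPKM in MCT. It just missed the threshold (0.77, SE 0.25, adjusted p 0.0546), and DESeq2 called it higher. Fancl itself, the ligase subunit, was at 4.67 to 5.26 FPKM in control and 5.50 to 6.55 FPKM in MCT, again without overlap (0.31, SE 0.12, adjusted p 0.110). Fancm, the DNA translocase that anchors the complex, was lower in each MCT library, at 0.66 to 0.73 FPKM against 0.74 to 0.83 FPKM, a difference that the test did not call (-0.20, SE 0.15, adjusted p 0.413). Fancc, Fancf and Fancg overlapped between the groups, with log2 fold changes of 0.20, -0.35 and 0.15. Core subunits thus stood at very unequal levels, from 0.378 ± 0.0562 FPKM (SD, n = 4) for Fanca to 21.7 ± 2.90 FPKM for Fance in control.

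Among the nucleases, which make the incisions beside a crosslink, Eme1 rose and the other 4 tested did not pass the threshold. EME1 is a partner of MUS81, a nuclease that cuts only when joined to a partner. Eme1 was at 0.22, 0.22, 0.25 and 0.09 FPKM in control and 1.05, 0.64, 1.06 and 0.76 FPKM in MCT. Every MCT library was well above the controls (log2 fold change 2.13, SE 0.39, adjusted p 0.00567), on 3.0 to 9.5 read pairs per control library and 24.5 to 40.3 per MCT library. Mus81 was at 7.82 to 8.92 FPKM in control and 8.09 to 9.22 FPKM in MCT, with a log2 fold change of 0.05 (SE 0.10, adjusted p 0.777). The ratio of Eme1 to Mus81 in FPKM was 0.0243 ± 0.0097 (SD, n = 4) in control and 0.105 ± 0.0291 in MCT. Eme2, the alternative partner of MUS81 and not one of the 40, was more abundant than Eme1, at 20.47 to 23.93 FPKM in control and 17.10 to 21.03 FPKM in MCT (-0.30, SE 0.11, adjusted p 0.0813). Slx4, the scaffold that holds these nucleases, was at 5.94 to 8.47 FPKM in control and 5.48 to 8.24 FPKM in MCT (-0.21, SE 0.16). Ercc1, a subunit of the nuclease ERCC1-XPF, was the most abundant of the 38 in control, at 25.3 ± 4.32 FPKM (SD, n = 4), and 24.2 ± 1.46 FPKM in MCT (log2 fold change -0.07, SE 0.13). Fan1, a crosslink nuclease recruited by ubiquitinated FANCD2, had a log2 fold change of 0.18 (SE 0.16).

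In the BRCA group, 3 of 5 genes rose. BRCA1 and BARD1 form a ubiquitin ligase that promotes end resection. Brca1 was at 0.44, 0.42, 0.43 and 0.42 FPKM in control and 0.79, 1.17, 1.18 and 1 FPKM in MCT. The 4 controls were almost equal, and all MCT libraries were higher (log2 fold change 1.28, SE 0.18, adjusted p 0.00196). Bard1 was at 0.23, 0.27, 0.38 and 0.13 FPKM in control and 0.77, 0.96, 1.35 and 1.44 FPKM in MCT, with no overlap (2.12, SE 0.37, adjusted p 0.00441). The ratio of Bard1 to Brca1 in FPKM was 0.590 ± 0.240 (SD, n = 4) in control and 1.09 ± 0.265 in MCT. Brip1, a helicase that binds BRCA1 and unwinds DNA at stalled forks, was at 0.22, 0.21, 0.16 and 0.19 FPKM in control and 0.38, 0.63, 0.64 and 0.67 FPKM in MCT. MCT 1 was again the lowest MCT library, still above the controls (1.56, SE 0.29, adjusted p 0.00657). Brca2, a mediator of homologous recombination, was at 0.34, 0.43, 0.78 and 0.48 FPKM in control and 0.77, 0.85, 0.93 and 0.79 FPKM in MCT. Control 3 exceeded the lowest MCT value, and the gene did not pass the threshold (0.72, SE 0.25, adjusted p 0.0721). DESeq2 called Brca2 higher. Palb2, which joins BRCA1 to BRCA2, overlapped between the groups, at 0.67 to 1.09 FPKM in control and 0.91 to 1.27 FPKM in MCT (0.28, SE 0.22).

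Of the 5 genes Rad51b, Rad51c, Rad51d, Xrcc2 and Xrcc3, 4 were tested. None of the 4 was called by edgeR, 2 were at an unadjusted p under 0.05, DESeq2 called 2 and limma none. Their proteins form small complexes that act in homologous recombination. Xrcc2 was at 0.63, 0.79, 0.43 and 0.88 FPKM in control and 0.63, 1.5, 1.35 and 1.63 FPKM in MCT. MCT 1 lay within the controls while the other 3 MCT libraries lay above them (0.90, SE 0.34, adjusted p 0.0914). Rad51c was at 1.14 to 1.76 FPKM in control and 1.64 to 2.53 FPKM in MCT (0.66, SE 0.22, adjusted p 0.0613). DESeq2 called Rad51c and Xrcc2 higher. Rad51d and Xrcc3 had log2 fold changes of -0.16 (SE 0.12) and -0.38 (SE 0.27). Rad51b was at 0 to 0.24 FPKM in control and 0 to 1.05 FPKM in MCT, on at most 10.9 read pairs in any library, and was not tested.

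Of 5 motors and partners of recombination, 2 rose, and all 5 had a positive log2 fold change. Rad51ap1, whose product stimulates strand pairing, had tight groups, at 1.33, 1.51, 1.32 and 1.17 FPKM in control and 3.31, 2.98, 3.18 and 3.15 FPKM in MCT. The groups lay far apart for their spread, with a log2 fold change of 1.23 (SE 0.18, adjusted p 0.00193). Rad54l, a motor that drives strand invasion, was at 0.37, 0.54, 0.63 and 0.32 FPKM in control and 1.05, 0.93, 1.42 and 1.65 FPKM in MCT (1.43, SE 0.32, adjusted p 0.0128). Exo1, the exonuclease that resects broken ends, was at 0.03, 0.24, 0.33 and 0.10 FPKM in control and 0.57, 0.89, 0.69 and 0.66 FPKM in MCT. Its groups did not overlap, but the controls differed widely among themselves and it just missed the threshold (1.98, SE 0.64, adjusted p 0.0557). DESeq2 and limma called Exo1 higher, though it passed the limma filter only through the MCT libraries. Blm, the helicase that dissolves joint molecules, was at 1.02 to 1.57 FPKM in control and 1.41 to 2.31 FPKM in MCT (0.63, SE 0.20, adjusted p 0.0516). DESeq2 called Blm higher. Rad54b, another RAD54-type motor, was listed at 0 in 2 controls, at most 0.16 FPKM in the others, and 0.25 to 0.45 FPKM in MCT (2.31, SE 1.08, adjusted p 0.167).

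Of the checkpoint kinases, ATM and ATR sense breaks and stalled forks, and CHEK2 passes on the signal of ATM. Atm was at 2.60 to 3.34 FPKM in control and 3.10 to 3.41 FPKM in MCT (0.11, SE 0.09), and Atr at 0.76 to 0.99 FPKM and 0.85 to 1.35 FPKM (0.36, SE 0.18). Neither passed the threshold (adjusted p 0.429 and 0.189). Chek2 was at 2.16, 2.33, 2.05 and 2.10 FPKM in control and 2.08, 3.85, 4.41 and 4.37 FPKM in MCT. MCT 1 lay within the control range and the other 3 far above it. Chek2 was called with a log2 fold change of 0.76 (SE 0.24, adjusted p 0.04997) and kept its call in 6 of 19 alternatives, with adjusted p up to 0.131. Without MCT 1 the log2 fold change was 0.95 (adjusted p 0.00440), and the call was lost without any 1 of the other 7 libraries.

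None of the 3 polymerase genes was called by edgeR, 1 was at an unadjusted p under 0.05, DESeq2 called 1 and limma none. Rev1 and Rev3l, which copy past the unhooked crosslink, were at 8.69 to 9.40 FPKM and 4.03 to 4.50 FPKM in control and at 8.27 to 11.61 FPKM and 3.49 to 3.97 FPKM in MCT. Their log2 fold changes were 0.10 (SE 0.11) and -0.16 (SE 0.08), and every MCT library lay below the controls for Rev3l. Polq, the polymerase of microhomology-mediated end joining, was far lower, at 0.05, 0, 0.07 and 0.03 FPKM in control and 0.17, 0.19, 0.16 and 0.28 FPKM in MCT. The groups did not overlap, but at no more than 6.8 read pairs per control library the log2 fold change of 2.41 had an SE of 0.83 (adjusted p 0.0717). DESeq2 called Polq higher.

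**Figure D2:**
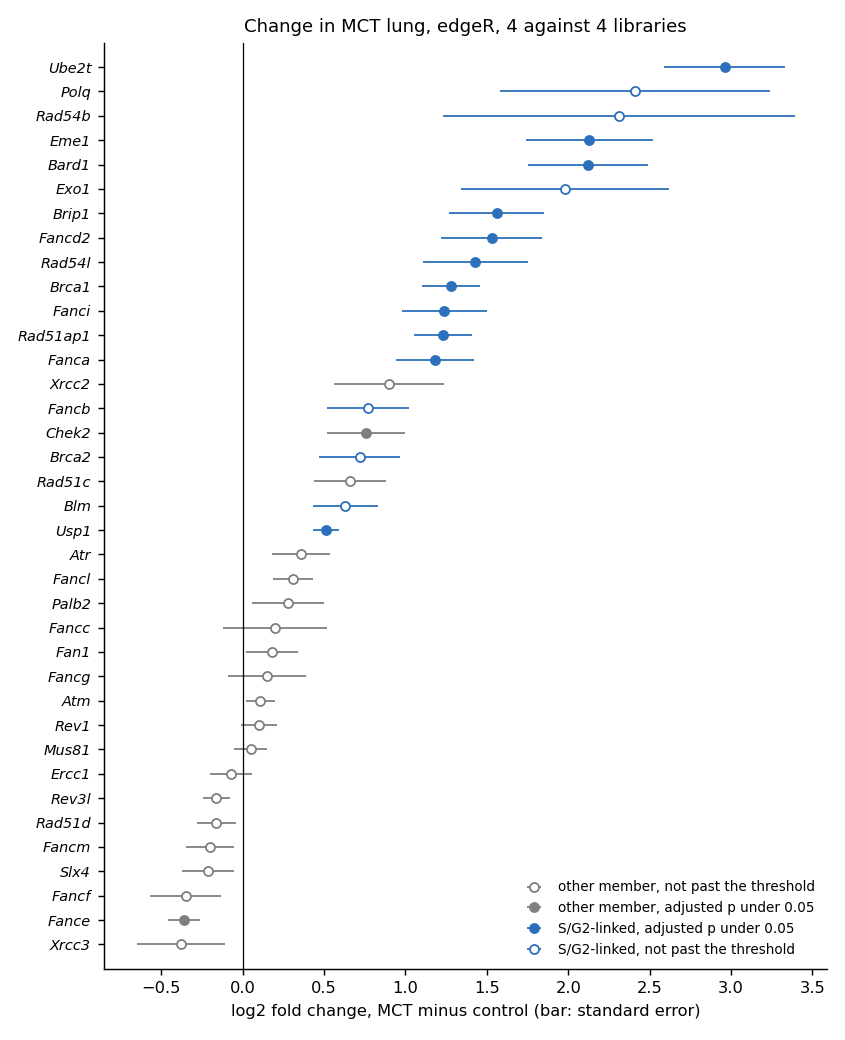
Log2 fold change (MCT minus control) of the 37 genes tested by edgeR, with bars for the standard error; filled circles passed an adjusted p of 0.05, blue marks genes linked to S and G2 phase and grey the others. Blue genes run from 0.51 (Usp1) to 2.96 (Ube2t), with the grey genes Xrcc2 (0.90), Chek2 (0.76) and Rad51c (0.66) among them, and Fance is the filled circle left of 0.

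Of the 12 genes that rose, 11 are linked to S and G2 phase. From general knowledge of these genes, 18 of the 40 were set down as transcribed mainly in S and G2 phase. Earlier results of these data were known by then, so the sorting may not be independent of the values. Of the 18, 17 were tested. Of these 17, 11 rose (64.7%) and none fell, beside 11.0% and 9.45% of all genes tested. All 17 had a positive log2 fold change, and the median was 1.43. By edgeR, DESeq2 and limma none of the 17 was lower, also at an unadjusted p under 0.05. In 15 of the 17 every MCT library was above every control library, as in 13.3% of all genes tested. Of the 20 other genes tested, 1 rose (Chek2) and 1 fell (Fance), which is 5.0% each. Of these 20, 12 had positive log2 fold changes, and the median was 0.10. The summed level of the 17 was 16.8 to 19.1 FPKM in the controls and 31.8 to 39.7 FPKM in MCT, while that of the 21 others in the table was 104 to 114 FPKM and 103 to 109 FPKM. In each MCT library the median S/G2-linked gene stood at 2.26, 2.74, 3.05 and 3.34 times its control mean in MCT 1 to 4, and the median other gene at 0.963, 1.01, 1.10 and 1.04 times. The S/G2-linked genes were also the lower ones, with a median control level of 0.465 FPKM beside 3.60 FPKM for the other 20 tested.

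The counts were also split by level. Among genes with a mean under 2 FPKM over all 8 libraries, 8 of 14 S/G2-linked genes rose and none of 8 others by edgeR (2 at an unadjusted p under 0.05, 2 by DESeq2 and 0 by limma). At or above 2 FPKM, 3 of 3 S/G2-linked genes rose and 1 of 12 others. This mean includes the MCT libraries, so a rise can itself lift a gene past the cut. Ube2t and Rad51ap1, with control means of 0.53 and 1.33 FPKM, passed it only through MCT. The split therefore cannot show how the classes compare at a higher control level. Over all genes tested the share that rose was 6.76% under 2 FPKM and 12.4% at or above it. Among the 12 genes that rose, MCT 1 was the lowest MCT library for 7 and MCT 2 for 5, and MCT 3 was the highest for 6.

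The rise went with markers of dividing cells and of some immune cells, and their part in the result was not tested. For the counts below, 11.0% of all genes tested rose and 9.45% fell. Of 14 dividing cell markers tested, 13 rose (all but Aurkb), with Tpx2, a spindle assembly factor, from 0.910 ± 0.307 to 7.72 ± 1.39 FPKM (SD, n = 4) and the cytokinesis gene Prc1 from 6.51 ± 0.513 to 21.2 ± 1.08 FPKM. Their summed level was 26.4 to 57.3 FPKM in control and 115 to 173 FPKM in MCT. Aurkb alone ranged from 2.05 to 73.83 FPKM, highest in MCT 1. Without Aurkb, left out after its values were seen, the sum was 20.6 to 35.0 FPKM in control and 99.4, 108, 112 and 123 FPKM in MCT 1 to 4. MCT 1 was thus the lowest MCT library without Aurkb but the highest with it (173 FPKM against 115 to 130 FPKM). The order of the MCT libraries for these markers therefore depends on leaving Aurkb out. The summed level of 10 macrophage markers was 250 to 372 FPKM in control and 506 to 923 FPKM in MCT, lowest in MCT 1. C1qc went from 48.0 ± 10.5 to 172 ± 48.2 FPKM and C1qa from 51.1 ± 14.0 to 176 ± 45.5 FPKM. Marco was listed at 0 in all controls and at 0 to 0.11 FPKM in MCT, and was not tested. Of 9 macrophage markers tested, 6 rose. The summed level of 8 mast cell markers was 65.6 to 66.8 FPKM in control and 246 to 1100 FPKM in MCT, again lowest in MCT 1, and 7 of the 8 rose and 1, Kit, fell. Kit alone was at 46.67 to 57.31 FPKM in control and 16.71 to 32.82 FPKM in MCT. The control sums are therefore mostly Kit and do not show how low the other markers were. Ms4a2 and Cpa3 had the smallest p of the 8, with log2 fold changes of 5.3 and 5.84. Of 10 T and B cell markers, 1 rose (Cd3g, log2 fold change 0.86) and 1 fell (Cd8a, -1.01), with sums of 41.6 to 113 FPKM in control and 59.8 to 81.5 FPKM in MCT.

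Markers of the lung's own cells moved in both directions, where 11.0% of all genes tested rose and 9.45% fell. Of 7 endothelial markers tested, 1 rose (Emcn, 1.15) and 1 fell (Tek, -2.61), and the sum was 451 to 506 FPKM in control and 292 to 388 FPKM in MCT. Of 10 lung epithelial markers, 1 rose (Lamp3, 0.64) and 2 fell, Slc34a2 (-1.08) and Sftpc (-0.51). No ciliated (9 tested) or cardiac (7 tested) marker was called by edgeR, at an unadjusted p under 0.05, by DESeq2 or by limma. Their most abundant members had log2 fold changes of -0.39 (Tppp3) and 0.43 (Actc1).

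**Figure D3:**
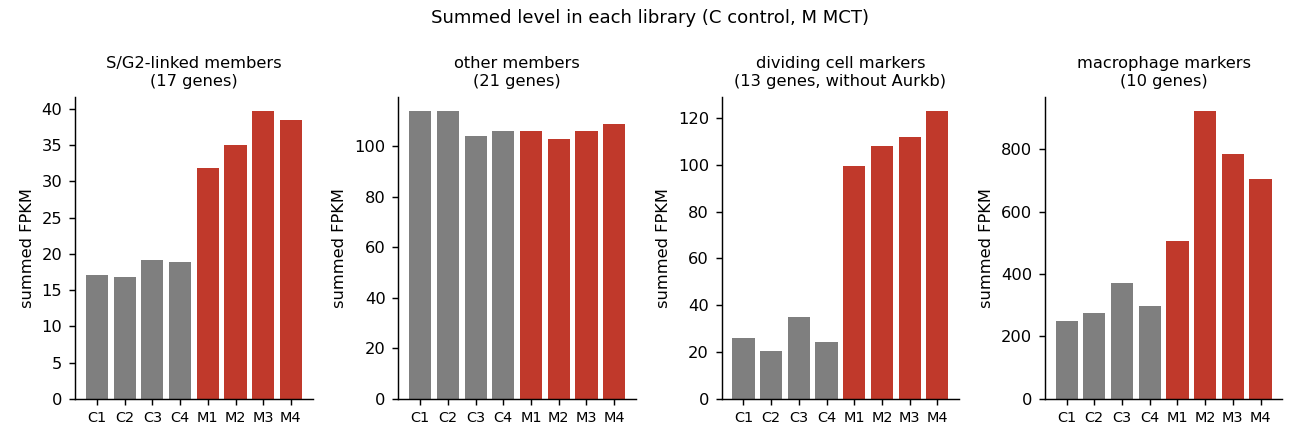
Summed FPKM in each of the 8 libraries (C1 to C4 control in grey, M1 to M4 MCT in red) for the S/G2-linked repair genes, the other repair genes, the dividing cell markers without Aurkb and the macrophage markers. All sums but that of the other repair genes are higher in every MCT library than in every control, and the other repair genes span 104 to 114 in control and 103 to 109 in MCT.

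The rest of the repair machinery was described from lists of other genes, by their counts and medians. Over all genes tested 11.0% rose and 9.45% fell. In other Fanconi and crosslink repair genes, 2 of 16 rose (12.5%) and 1 fell (6.25%), with a median log2 fold change of 0.14. The share that rose was near that of all genes. The 2 that rose were Uhrf1, which senses crosslinks and hemimethylated DNA, from 1.54 ± 0.707 to 5.52 ± 0.896 FPKM (SD, n = 4), and Rad18, the ligase that puts ubiquitin on PCNA, from 1.92 ± 0.267 to 3.49 ± 0.393 FPKM. The one that fell was Slx1b, the SLX4-bound nuclease subunit (-0.38, SE 0.11, adjusted p 0.0423), and the list had 0 lower genes without control 1, control 2, control 4, MCT 2 or MCT 3. In other homologous recombination genes, 9 of 37 rose (24.3%) and 1 fell (2.7%), with a median of 0.23. Only 5 rose without control 2, MCT 2 or MCT 3. The gene that fell, Mcm9 (-0.34, adjusted p 0.0488), was near the threshold, and the list had 0 lower genes without any 1 of the 8 libraries. Parpbp, which restrains recombination, rose from 0.273 ± 0.0512 to 0.975 ± 0.0603 FPKM, and Swi5, a recombination cofactor, from 93.2 ± 2.58 to 126 ± 10.1 FPKM. Others that rose were Hrob, Fignl1, Rbbp8, Rpa1, Rpa2 and Sem1, at log2 fold changes of 0.23 to 1.66. In the damage signalling list, 3 of 20 rose (1 without MCT 2, MCT 3 or MCT 4) and none fell by edgeR (2 without MCT 1), with a median of 0.05. At an unadjusted p under 0.05 2 were lower, DESeq2 called 2 lower and limma 1. H2ax, the histone phosphorylated around breaks, went from 33.1 ± 2.37 to 46.6 ± 2.2 FPKM, and Clspn, the adaptor between ATR and CHEK1, from 1.17 ± 0.205 to 2.08 ± 0.411 FPKM.

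Other repair routes do not use a sister chromatid as template. The shares that rose were 18.2% for end joining and 11.1% each for nucleotide and base excision repair. Over all genes tested 11.0% rose and 9.45% fell, so the 2 excision routes were near the share of all genes. Of 11 non-homologous end-joining genes, 2 rose (Xrcc5 and Xrcc6, the Ku subunits that hold broken ends, by 0.46 and 0.32) and none fell, with a median of 0.09. Only 1 rose without any 1 library other than MCT 1. None was lower at an unadjusted p under 0.05, by DESeq2 or by limma. Of 18 nucleotide excision repair genes, 2 rose (1 without control 1, control 2, MCT 2 or MCT 3) and 1 fell, with a median of 0.00. Gtf2h5, a small subunit of TFIIH, rose by 0.47, and Xpc, the lesion sensor, fell by 0.34. Of 18 base excision repair genes, 2 rose (1 without control 2, control 4, MCT 2, MCT 3 or MCT 4) and none fell by edgeR, with a median of -0.01. At an unadjusted p under 0.05 1 was lower, and none was by DESeq2 or limma. Apex1, the abasic site endonuclease, rose by 0.45. Neil3, a glycosylase that can also unhook crosslinks, was listed at 0 in 3 controls and 0.01 FPKM in control 2, and was at 0.19, 0.23, 0.53 and 0.26 FPKM in MCT. No fold is given for it. Neil3 was the other base excision gene called higher and is part of the 11.1%. With at most 0.5 read pairs in a control, it passed the filter on low counts only through the MCT libraries.

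Replication genes and p53 targets had larger shares of higher genes, 67.9% and 58.8%, beside 11.0% of all genes tested. Of 28 DNA replication genes, 19 rose and 1 fell, with a median of 0.87. The one that fell was listed as Cdc45, at 106 to 153 FPKM in control and 86.3 to 88.6 FPKM in MCT. The span of Cdc45 contains that of the endothelial gene Cldn5 on the other strand, at 16.3 to 61.2 FPKM in control and 0 to 42.3 FPKM in MCT, and the sources used here do not say whether reads were assigned by strand. Pcna, the sliding clamp, went from 47.5 ± 0.576 to 73.4 ± 1.85 FPKM (SD, n = 4), and Fen1, the flap nuclease, from 3.90 ± 0.295 to 9.36 ± 1.54 FPKM. Of 17 p53 targets, 10 rose (6 without MCT 2) and none fell by edgeR (1 without MCT 4), with a median of 0.48. At an unadjusted p under 0.05 2 were lower, and DESeq2 and limma each called 1. Ccng1 rose by 1.10 and the nuclease gene Aen by 1.69. With MCT 1 and control 1 left out, 5 p53 targets and 17 replication genes rose.

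**Figure D4:**
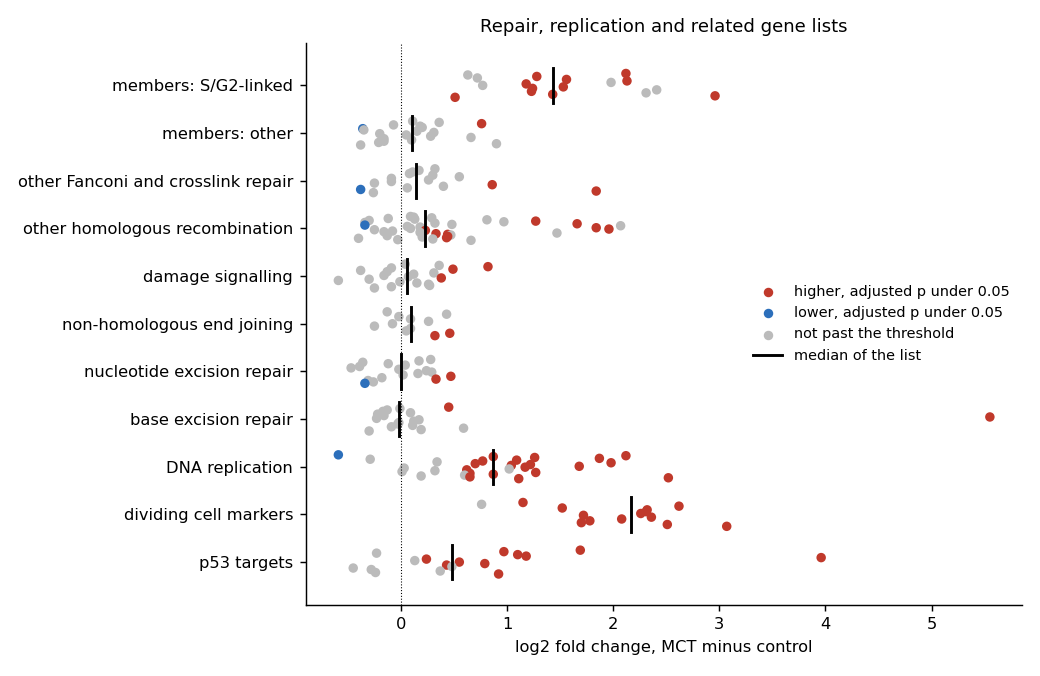
Log2 fold change (MCT minus control) of each tested gene in the S/G2-linked and other repair genes described here, in 6 lists of other repair genes, and in replication genes, dividing cell markers and p53 targets, with a black bar at each median. The medians are 1.43 for the S/G2-linked genes and 0.10 for the others, 0.87 for replication genes and 2.17 for dividing cell markers.

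The 250 bases before the gene start were read for 34 of the 38 genes from RefSeq sequences on the rat build GRCr8, which is not the build of the expression table. They are shown because several of these genes moved together. Shown are the 6 genes with the smallest p among those that rose and held a motif, and Ercc1, the most abundant gene with a promoter sequence that was not called. Capitals mark matches, on either strand, to TTTGAA or TTCGAA (the cell cycle genes homology region, CHR), to TTTCCCGC, TTTCGCGC, TTTGCCGC or TTTGGCGC (E2F), and to CCAAT (NF-Y), which reads ATTGG on the other strand. No motif of 1 kind contains one of another kind. Ube2t lies at chr13:48954916-48955165 (plus strand), Rad51ap1 at chr4:161458560-161458809 (minus), Brca1 at chr10:86977582-86977831 (minus), Usp1 at chr5:118702806-118703055 (plus), Bard1 at chr9:80143756-80144005 (minus), Brip1 at chr10:71528084-71528333 (minus) and Ercc1 at chr1:88124491-88124740 (plus).
Ube2t: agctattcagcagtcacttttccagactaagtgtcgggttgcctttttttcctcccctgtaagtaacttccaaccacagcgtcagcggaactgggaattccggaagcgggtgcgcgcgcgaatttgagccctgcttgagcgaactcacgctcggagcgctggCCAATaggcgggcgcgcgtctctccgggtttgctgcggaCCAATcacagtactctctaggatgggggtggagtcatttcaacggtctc
Rad51ap1: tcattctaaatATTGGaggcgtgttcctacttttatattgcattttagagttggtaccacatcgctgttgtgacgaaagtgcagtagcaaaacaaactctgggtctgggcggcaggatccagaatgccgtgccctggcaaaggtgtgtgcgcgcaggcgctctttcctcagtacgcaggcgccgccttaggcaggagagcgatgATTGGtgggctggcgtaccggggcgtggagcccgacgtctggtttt
Brca1: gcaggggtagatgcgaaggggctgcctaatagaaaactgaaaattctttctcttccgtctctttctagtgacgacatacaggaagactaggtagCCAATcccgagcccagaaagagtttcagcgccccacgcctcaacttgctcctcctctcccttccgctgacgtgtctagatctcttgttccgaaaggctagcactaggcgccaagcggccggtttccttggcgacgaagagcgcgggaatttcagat
Usp1: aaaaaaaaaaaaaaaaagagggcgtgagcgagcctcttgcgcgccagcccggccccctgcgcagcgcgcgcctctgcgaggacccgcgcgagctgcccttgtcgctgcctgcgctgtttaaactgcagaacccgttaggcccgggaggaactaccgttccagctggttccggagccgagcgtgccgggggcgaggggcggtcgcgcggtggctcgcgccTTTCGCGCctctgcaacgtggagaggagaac
Bard1: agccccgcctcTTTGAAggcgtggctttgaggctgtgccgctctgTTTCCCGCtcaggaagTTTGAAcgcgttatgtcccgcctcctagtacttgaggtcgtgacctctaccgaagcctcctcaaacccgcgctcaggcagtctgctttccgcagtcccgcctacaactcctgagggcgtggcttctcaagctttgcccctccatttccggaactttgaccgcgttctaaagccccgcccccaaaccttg
Brip1: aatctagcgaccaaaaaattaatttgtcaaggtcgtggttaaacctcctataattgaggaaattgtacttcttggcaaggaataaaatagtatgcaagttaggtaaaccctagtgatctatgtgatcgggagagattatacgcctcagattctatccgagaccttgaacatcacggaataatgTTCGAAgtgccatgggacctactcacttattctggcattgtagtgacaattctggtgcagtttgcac
Ercc1: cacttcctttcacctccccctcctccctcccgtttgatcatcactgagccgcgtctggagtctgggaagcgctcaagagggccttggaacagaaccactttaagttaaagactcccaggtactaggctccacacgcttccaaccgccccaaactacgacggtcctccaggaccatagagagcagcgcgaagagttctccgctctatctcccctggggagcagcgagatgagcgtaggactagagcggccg
Ube2t and Rad51ap1 each hold 2 CCAAT boxes, Brca1 holds 1, Usp1 holds 1 E2F match (first base at -31 from the start), Bard1 holds 2 CHR matches and 1 E2F match, and Brip1 holds 1 CHR match. Ercc1 holds none of them. The 6 were picked for holding a motif and Ercc1 was not, so they do not compare genes that rose with genes not called. Fancd2 and Eme1 rose and hold none, while Xrcc3 was not called and holds 4 CCAAT boxes.

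The shares of promoters with each motif were as follows. An E2F match stood in 5 of the 34 promoters (14.7%), beside 3.06% of 11265 promoters of tested genes and 1.73% of all 33469 in the reference table. It stood in 2 of 15 S/G2-linked genes (13.3%) and in 3 of 19 others (15.8%), and in 2 of the 11 matched genes that rose (18.2%). A CHR match stood in 4 of 34 (11.8%) beside 12% of promoters of tested genes and 17.4% of all, and CCAAT in 13 of 34 (38.2%) beside 35.2% and 34.0%. Within 100 bases of the start the shares were 8.82% for E2F, 5.88% for CHR and 23.5% for CCAAT, beside 1.33%, 3.72% and 19.5% of promoters of tested genes. A match is a match of letters only, and its absence says only that these letters are not in the window.

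Some of these genes share their span with another gene of the table, and the sources used here do not say whether counting used strand. On Rnor_6.0, the build of the table, Bard1 (ENSRNOG00000014960, chromosome 9, 78294834 to 78369031) overlaps a pseudogene on its own strand by 302 bases, which was at 0.08 to 3.83 FPKM in control and 3.75 to 4.99 FPKM in MCT. Rad54b shares 4645 bases with Fsbp on the same strand, and Fancl shares 1092 bases with Vrk2 on the other. Ube2t (ENSRNOG00000005038, chromosome 13, 51795867 to 51801163), Eme1 (ENSRNOG00000024420, chromosome 10, 82367084 to 82374171), Fancd2 (ENSRNOG00000061085, chromosome 4, 145489869 to 145551479) and Rad51ap1 (ENSRNOG00000059878, chromosome 4, 159469804 to 159482869) overlap no other gene of the table.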

How the data were processed

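RNA of 8 rat lung libraries (4 MCT, 4 control) was sequenced by the authors. The submitters' processing notes name cutadapt 1.9, HISAT2 2.0.4, StringTie 1.3.4d, edgeR and the build Rnor_6.0, with no order or settings. The table deposited by the authors gives FPKM and an estimated count per gene and library, per the file headers. These counts are whole numbers spaced by about 3.67 units per read pair, found by a periodogram of the low values, so the totals of 39.8 to 66.6 M units stand for 10.8 to 18.1 M read pairs. All value columns matched a library, and the counts were tested with edgeR 4.0.16 in R 4.3.3 (filterByExpr with a minimum count of 10, TMM, robust quasi-likelihood fit, Benjamini-Hochberg over 16715 genes). Standard errors are the fold change over the root of the F statistic. limma 3.58.1 and DESeq2 1.42.0 were alternatives. Libraries of a group were not duplicates (chi-square per gene at least 16.1).

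The members, roles, cell cycle classes, lists and tests were chosen with earlier results of these data known. Named genes were all 40 members and, of each list, the 2 called genes with the smallest p or else the most abundant tested gene; others are examples chosen after their values were seen. No protein sequence table was used here. Values of 1 list gene are not reported here. The dividing cell, lung, ciliated, macrophage, mast, T and B cell, endothelial and cardiac lists are marker lists.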

Additional observations from a re-analysis of the deposited data

Results flagged for a closer look

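In groups of 4 libraries, the gap of 1 library to the nearest of the others was compared with the range of the group on log2 CPM, for the genes named here. Of 134 such groups 8 were past Dixon's critical value, where chance flags about 1 in 20, or 6.7. MCT 1 was the low library for Fancd2 (gap 0.8983 of the range, 0.83 FPKM against 1.79 to 1.9), Brip1 (0.8721, 0.38 against 0.63 to 0.67), Chek2 (0.8293, 2.08 against 3.85 to 4.41) and the mast cell gene Ms4a2 (0.9205, 13.66 against 37.31 to 41.38). Control 4 was low for Eme1 (0.842, 0.09 FPKM against 0.22 to 0.25). MCT 4 was high for Xrcc6 (0.8641, 12.54 FPKM against 10.07 to 10.76), control 1 was high for Gtf2h5 (0.8898, 11.42 against 9.57 to 10.20), and control 2 was the control with any reads for Neil3 (1, 0.01 FPKM against 0).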

How the results depend on the processing

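Of the 12 repair genes that rose, Bard1, Brca1, Brip1, Eme1, Fanca, Fancd2, Fanci, Rad51ap1, Rad54l, Ube2t and Usp1 kept their call in each alternative that tested them, except that Usp1 (0.51) is under a required log2 fold change of 1. Chek2 did not, nor did Fance, the gene that fell (values above). Fanca, Eme1, Brca1 and Bard1 passed the limma filter, and Ube2t the filter of 1 FPKM, only through the MCT libraries. The cause of the changes below was not tested, except where fewer genes were tested or a fold limit was added. Leaving out 1 library gave 11 to 15 repair genes higher and 0 to 1 lower, with 1191 to 1946 of all genes higher and 975 to 1730 lower, lowest without MCT 2. With each library left out the counts higher were 5 to 10 for other recombination (5 without control 2, MCT 2 or MCT 3), 1 to 3 for damage signalling (1 without MCT 2, MCT 3 or MCT 4), 1 to 2 for end joining, nucleotide excision and base excision repair, and 6 to 9 for p53 targets (6 without MCT 2). The counts lower were 0 to 1 for other Fanconi genes, 0 to 0 for other recombination, 0 to 2 for damage signalling (2 without MCT 1) and 0 to 1 for p53 targets (1 without MCT 4). DESeq2 called 19 repair genes higher, and lower 3 other recombination, 2 damage signalling, 2 nucleotide excision genes and 1 p53 target. limma on log2(FPKM + 0.5), and with 0.1 or 1 added, called 1 damage signalling gene and 1 p53 target lower and 1 base excision gene higher. With FPKM of at least 1 in 4 libraries, 7 of 23 repair genes tested rose, 1 damage signalling gene fell and 1 base excision gene rose. Median-of-ratios factors gave 1 damage signalling gene lower and 1 end joining gene higher. Upper-quartile factors gave 0 other recombination genes lower, and no filter 0 lower there and 1 end joining gene higher. Counts divided by the spacing gave 16 repair genes higher and 1 base excision gene. With a log2 fold change of at least 1 required, 618 of all genes were higher and 298 lower, 0 repair genes were lower, and the lists had 1 (other Fanconi), 4 (other recombination), 0 (damage signalling), 0 (end joining), 0 (nucleotide excision), 1 (base excision), 12 (replication) and 4 (p53) higher and 0 lower for each. Without both libraries numbered 1, chosen after seeing the data, 0 repair and 0 other recombination genes fell, 2 damage signalling genes fell, and 1 end joining gene and 5 p53 targets rose. The log2 fold change of Ercc1 turned to 0.07 without control 2 (range over left-out libraries -0.13 to 0.07), and that of Rev1 to -0.00 without MCT 1 (range -0.00 to 0.17) and -0.03 without both libraries numbered 1. Genes under about 10 read pairs in control (Ube2t, Eme1, Exo1, Polq, Rad54b) are limited by depth.

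The labels number the libraries 1 to 4 in each group, but the correlations of same-numbered libraries' deviations were 0.11, 0.016, -0.017 and -0.085, and only pair 1 was over 0.1, so the numbers were not taken as pairs. Not every library correlated best with its own number. With a replicate block, 1436 of all genes were higher (8.59%) and 1271 lower, 11 repair genes rose, 0 other Fanconi and 0 other recombination genes fell, and 1 end joining, 1 nucleotide excision and 1 base excision gene and 6 p53 targets rose.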
